A study of Rattus norvegicus with 68 samples.

Results

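The comparison set nasal epithelial cells of rats that had breathed 15 ppm formaldehyde for 4 weeks (4 w, 4 arrays) directly against those of rats that had breathed the same concentration for 5 days (5 d, 4 arrays). These 8 samples, of 68 in the whole series, were taken by their labelled dose and time, and every probe set with 1 gene symbol was used. All rats were male F344/CrlBR animals of 8 weeks at the start, which inhaled the vapour with the whole body exposed, in daily sessions of 6 h on 5 days of each week. The 4 w rats were therefore older at sacrifice than the 5 d rats, and all of them, the check groups included, had breathed formaldehyde. The check groups were rats at 0.7 ppm, the lowest exposed dose, after 4 w (4 arrays) and after 5 d (4 arrays), and no unexposed rats of 4 w were among the samples used. Proteases released the cells from the lateral meatus and nasoturbinate of the level II nose, the site that holds mainly transitional with some respiratory epithelium, whereas olfactory lining and maxilloturbinate were discarded. The labels of the 4 w samples at 15 ppm conflict, since the treatment field says 5 days and the other 3 fields that give a time, which were followed, say 4 weeks. Each array held the RNA of 1 animal. The limma p values below set a difference against the spread between rats within groups, pooled over all 68 arrays of the 17 groups.

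Formaldehyde is a reactive aldehyde that binds protein and DNA, and in rodents it is taken up mostly by the lining of the front of the nose. Injured cells of such a lining release chemokines, small proteins that draw neutrophils, monocytes and lymphocytes out of the blood, and interferons, which switch on antiviral genes in neighbouring cells. Under lasting irritation a thin nasal epithelium can be replaced by a stratified squamous one, whose cells build keratin filaments, desmosomes and a crosslinked protein shell known as the cornified envelope.

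Of the defining markers, those of epithelium (Epcam, Cdh1, Krt8 and Krt18) had group means between 12.12 and 13.30 log2 units in both 15 ppm groups, and those of B cells (Ms4a1 and Cd79b) and muscle (Acta1, Ckm and Myh4) had means under 6, a level treated here as low signal. The olfactory marker Omp averaged 12.38 ± 0.96 in the 4 w rats and 12.35 ± 0.95 in the 5 d rats (SD, n = 4 each), so olfactory transcripts were present although the olfactory lining was labelled as discarded. Haemoglobin (Hbb) averaged 14.56 ± 0.07 log2 units in the 4 w rats and 14.67 ± 0.20 in the 5 d rats, so blood RNA was present in all 8 samples. RNA integrity numbers averaged 8.73 ± 0.29 in the 4 w rats and 8.33 ± 0.33 in the 5 d rats (exact permutation test, two-sided p = 0.171). At 0.7 ppm these numbers averaged 8.20 ± 0.08 at 4 w and 7.78 ± 0.10 at 5 d (exact permutation p = 0.0286), so time and RNA integrity ran together in the check groups. The shift toward higher numbers at 4 w was of similar size at 15 ppm (0.4) and at 0.7 ppm (0.425), with more spread between the 15 ppm rats. The signal of the 3' beta-actin control exceeded that of its 5' control, a sign of RNA shortening, by 1.79 ± 0.26 log2 units in the 4 w rats and 2.47 ± 0.08 in the 5 d rats (exact permutation p = 0.0286, the smallest that 4 against 4 animals allow). The same difference at 0.7 ppm was 1.84 ± 0.35 at 4 w and 1.96 ± 0.32 at 5 d (exact permutation p = 0.629). Some counts below are also given with this measure as a covariate.

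After 4 w of 15 ppm, set against 5 d, transcripts of chemokines, interferon-stimulated genes, neutrophils, macrophages and cytotoxic lymphocytes fell. Some transcripts of squamous proteins, of desmosomal proteins and of glutathione and antioxidant defence rose. No mitosis, S phase or ciliated cell gene of the lists used passed the test. The largest single rise among the genes called was that of Cdkn2a, which encodes cell cycle inhibitors. In the limma fit over 14217 genes, 1514 (10.6%) differed at an adjusted p under 0.05, 649 (4.56%) higher and 865 (6.08%) lower after 4 w. The shares higher and lower are the background for every count below of list genes called in this comparison. All 4 arrays of 4 w lay above all 4 of 5 d for 916 genes (6.44%) and below them for 866 (6.09%), which is the background for every statement below that groups did not overlap. The falls were the larger changes, since 262 of the genes called lower but 34 of those called higher changed at least 2-fold. The median log2 difference over all genes was 0.0015 and the median standard error 0.104. Among the genes called, the share that was higher was 42.9% on the deposited scale, 55.4% when each array was centred on its median, 31.8% after cyclic loess and 52.6% without animal 356 (596 higher and 538 lower). With the beta-actin difference as a covariate 2342 genes were called, 799 higher and 1543 lower, and with the 8 arrays fitted alone 594. Among the lists with 0 genes called in a direction, the count at an unadjusted p under 0.05 in that direction was 0 or 1 unless it is given below.

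**Figure D1:**
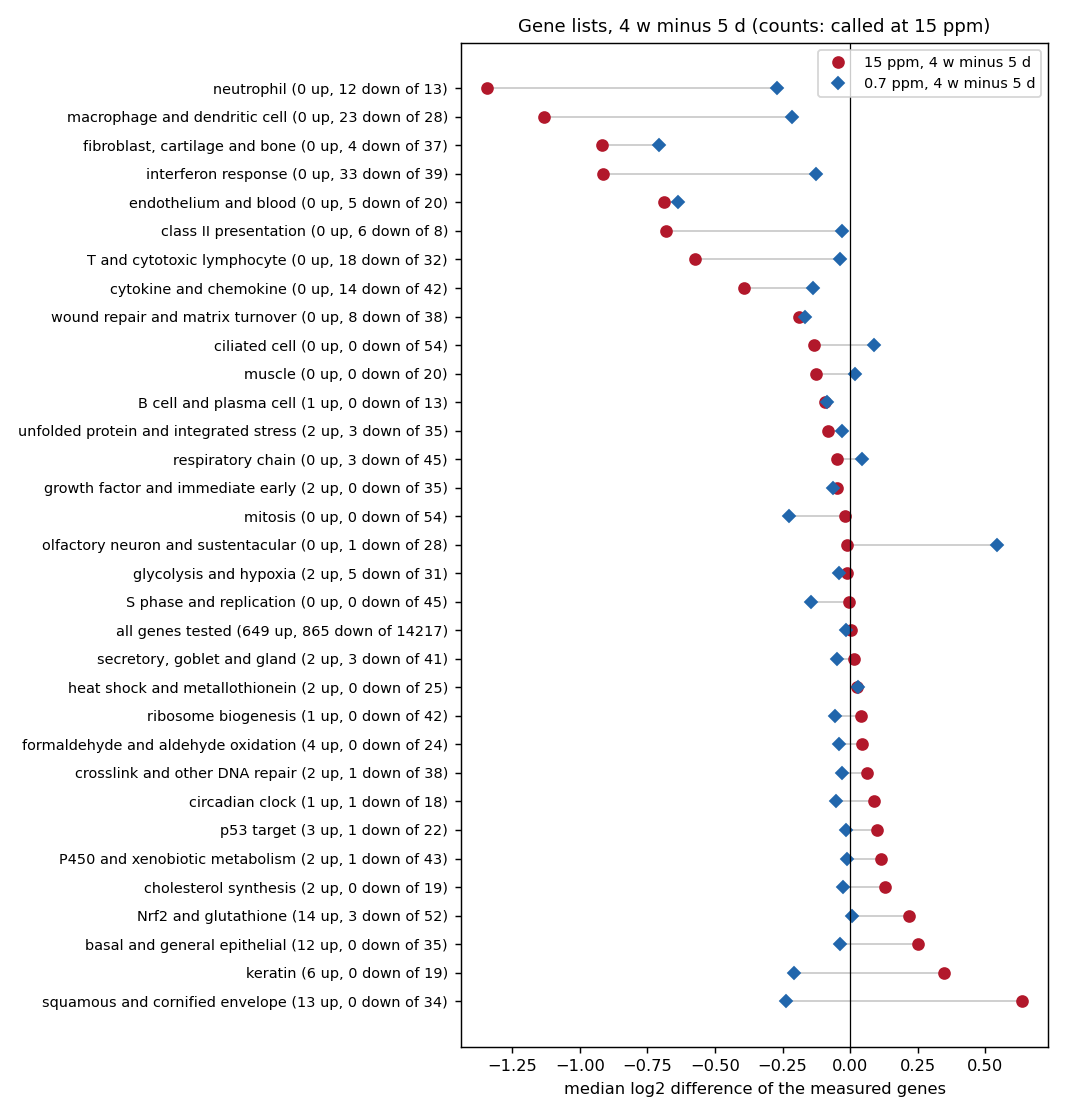
Median log2 difference, 4 w minus 5 d, of the measured genes of 32 lists and of all genes tested, at 15 ppm (circles) and at 0.7 ppm (diamonds), with the number of genes called higher (up) and lower (down) at 15 ppm in each label. The neutrophil list lies lowest at -1.34 and the squamous and cornified envelope list highest at 0.64, while the fibroblast and the endothelium lists lie low at both doses.

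The 2 largest falls among the genes called were those of chemokines. Of 42 measured cytokine and chemokine genes 14 fell and 0 rose (1 rose without animal 356) after 4 w, set beside 6.08% and 4.56% of all genes, and the median difference was -0.39. Cxcl11, a ligand of the lymphocyte receptor CXCR3, gave 9.27, 7.65, 8.59 and 8.34 in the 4 w rats, against 12.00, 11.89, 11.78 and 11.61 in the 5 d rats. All 4 arrays of the later time lay below all 4 of the earlier, a 10.3-fold fall (log2 difference -3.36 ± 0.51, SE, limma adjusted p = 2.01e-06). Cxcl10, a second CXCR3 ligand that interferon induces, gave 8.67, 7.51, 8.64 and 7.60 in the 4 w rats, against 11.74, 11.44, 10.54 and 10.99 in the 5 d rats. Its groups did not overlap either, and the fall was 8.4-fold (-3.07 ± 0.54, limma adjusted p = 3.36e-05).

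The monocyte attractants Ccl2 and Ccl7 followed the same course. Ccl2 gave 10.08, 9.43, 9.43 and 8.99 in the 4 w rats, against 12.22, 12.50, 11.82 and 12.45 in the 5 d rats, and Ccl7 gave 7.90, 6.98, 8.22 and 7.15 in the 4 w rats, against 10.61, 10.75, 9.68 and 10.59 in the 5 d rats. Ccl2 was 6.78-fold lower (-2.76 ± 0.47, limma adjusted p = 1.99e-05) and Ccl7 7.19-fold lower (-2.85 ± 0.24, limma adjusted p = 4.08e-13), in both cases without overlap of the groups. Ccl4 and Ccl5, chemokines that draw monocytes and T cells, fell 4.55-fold and 3.06-fold, and Cxcl3, a neutrophil attractant, fell 2.13-fold, although only 3 of its 5 probe sets pointed down. Ccr1, a receptor for several of these ligands, fell 4.36-fold. The epithelial alarmin Il33 (0.15, limma adjusted p = 0.604) and the membrane-bound chemokine Cxcl16 (0.032, limma adjusted p = 0.918), the members with the highest signal among those not called, overlapped between the times. At 0.7 ppm the list's median was -0.14 with 0 members called, where 0.0633% of all genes were called higher and 0.0492% lower.

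**Figure D2:**
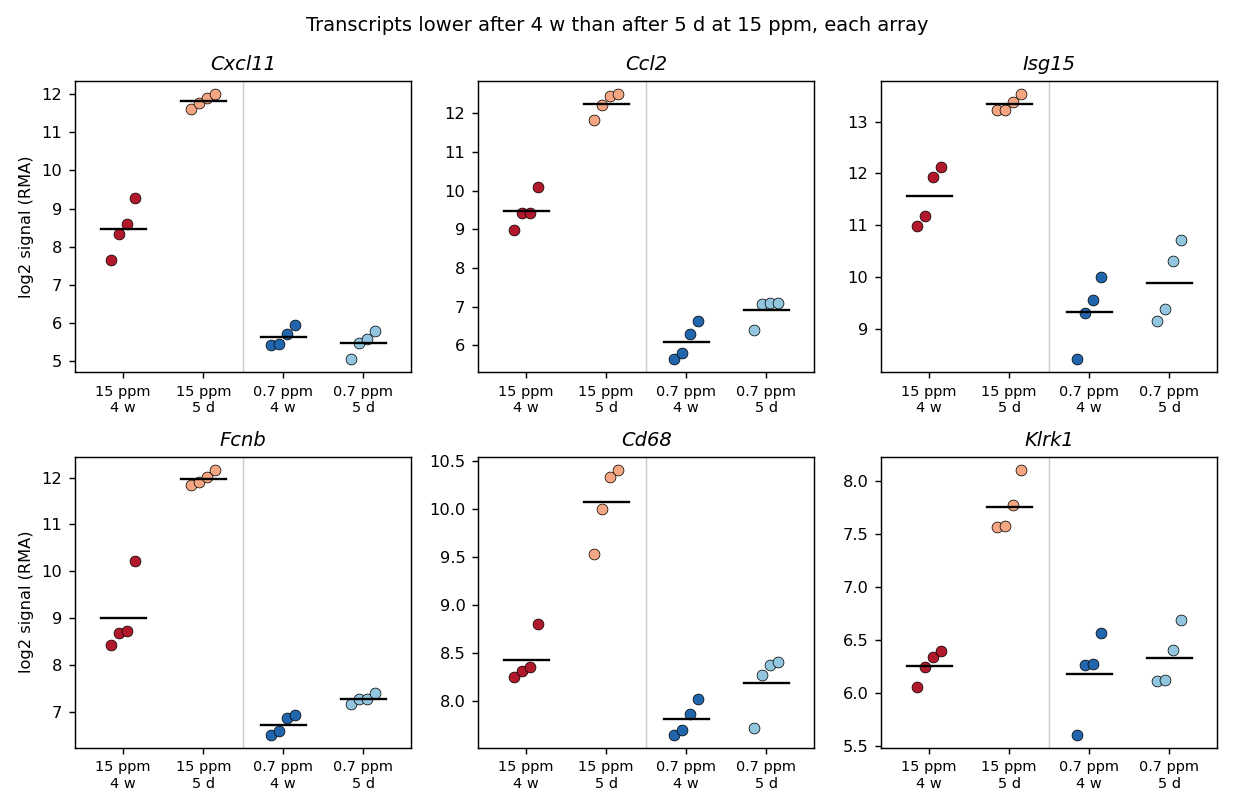
Log2 signal of 6 transcripts on each array (points) with the group mean (bar), for 15 ppm at 4 w and 5 d and for 0.7 ppm at 4 w and 5 d. In each panel the 4 arrays of 15 ppm at 4 w lie below the 4 of 15 ppm at 5 d, whereas the 0.7 ppm groups of the same times overlap in all panels but that of Fcnb.

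Interferon-stimulated genes fell almost throughout. Of 39 measured members 33 were called lower, 0 were called higher and 0 had a difference above 0, and the median was -0.91. Isg15, a ubiquitin-like protein, gave 12.13, 10.98, 11.94 and 11.18 in the 4 w rats, against 13.53, 13.22, 13.22 and 13.39 in the 5 d rats, a 3.44-fold fall (-1.78 ± 0.37, limma adjusted p = 0.000464) with no overlap. Stat2, which carries the type I interferon signal to the nucleus, gave 8.48, 8.35, 8.64 and 8.27 in the 4 w rats, against 9.55, 9.52, 9.0 and 9.15 in the 5 d rats, again without overlap. Its fall was 1.83-fold (-0.87 ± 0.11, limma adjusted p = 1.01e-08). Herc6, which attaches Isg15 in rodents, fell 3.56-fold, the RNA sensor relative Dhx58 2.98-fold and the mitochondrial nucleotide kinase Cmpk2 2.19-fold. Psmb8, a subunit of the immunoproteasome, missed the threshold (-0.64 ± 0.23, limma adjusted p = 0.0635, but 0.0461 and 0.0495 without either of animals 362 and 358). Leaving out single animals gave 25 to 35 calls among the 39.

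The promoters of the 2 called transcripts with the largest falls are shown because interferon acts on such genes through repeats of GAAA in their promoters. Capitals mark a match to GAAA, any 2 bases and GAAA again, searched on both strands from 250 bases before to 50 after the gene's start (RefSeq, GRCr8). Cxcl11 is at chr14:15973478-15973777 and Cxcl10 at chr14:15988816-15989115, both on the plus strand of chromosome 14.
Cxcl11: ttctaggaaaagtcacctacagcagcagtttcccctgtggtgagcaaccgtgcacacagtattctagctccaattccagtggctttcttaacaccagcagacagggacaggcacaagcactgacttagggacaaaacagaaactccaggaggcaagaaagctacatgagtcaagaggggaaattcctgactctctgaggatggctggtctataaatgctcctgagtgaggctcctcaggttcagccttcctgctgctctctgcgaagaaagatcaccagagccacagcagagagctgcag
Cxcl10: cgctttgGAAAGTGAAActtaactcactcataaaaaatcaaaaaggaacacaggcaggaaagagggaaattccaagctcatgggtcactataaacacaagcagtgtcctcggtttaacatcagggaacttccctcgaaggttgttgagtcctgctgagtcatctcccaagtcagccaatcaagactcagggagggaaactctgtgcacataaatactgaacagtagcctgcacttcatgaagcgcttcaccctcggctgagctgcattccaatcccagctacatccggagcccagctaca
The Cxcl10 window holds 1 match, GAAAGTGAAA, whose first base lies at -243 from the start, and the Cxcl11 window holds 0. A match was present in 1040 of 27457 promoters of this length (3.79%), in 350 of 11733 promoters of genes tested (2.98%) and in 22 of the 32 interferon list members with a promoter in the table (68.8%). Among these members the median log2 difference was -0.88 for the 22 with a match and -0.85 for the 10 without. The match is a description of the letters and does not show a factor bound there.

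Transcripts of blood-derived cells fell with them. In bulk RNA, fewer cells of a type and less RNA per cell cannot be told apart. The neutrophil list had 12 of 13 measured genes lower and 0 higher (median -1.34), and its mean log2 signal was 7.64, 7.53, 7.85 and 7.40 in the 4 w rats, against 9.01, 8.77, 8.76 and 9.01 in the 5 d rats. The ranges lay apart. They also lay apart at 0.7 ppm, with 6.26, 6.35, 6.50 and 6.36 at 4 w against 6.70, 7.06, 6.71 and 6.61 at 5 d. The list's median there was -0.27, with 0 members called. Cybb, the electron-carrying subunit of the phagocyte oxidase, fell 3.19-fold (-1.67 ± 0.17, limma adjusted p = 8.09e-11) and its partner Ncf4 2.54-fold (-1.34 ± 0.18, limma adjusted p = 1.06e-07). Csf3r, the receptor that keeps neutrophils alive, fell 4.01-fold, and S100a8 and S100a9, the most abundant neutrophil proteins, fell 3.47-fold and 2.94-fold. S100a9 gave 12.51, 12.26, 12.78 and 11.90 in the 4 w rats, against 13.48 to 14.19 in the 5 d rats, without overlap, and its limma adjusted p was 0.0313, but 0.056 to 0.0986 without any one of animals 365, 369, 354, 358 and 359 and 0.102 with the beta-actin covariate. At 0.7 ppm S100a9 averaged 9.62 ± 0.64 at 4 w and 10.80 ± 0.41 at 5 d, a difference of -1.18 ± 0.50 that was not called (limma adjusted p = 0.34).

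Macrophage and dendritic cell transcripts were lower for 23 of 28 measured genes, with a median of -1.13 and 0 called higher. Cd68, the lysosomal marker of macrophages, gave 8.81, 8.24, 8.31 and 8.35 in the 4 w rats, against 10.34, 10.41, 9.53 and 10.00 in the 5 d rats. The groups were clear of each other, and the fall was 3.12-fold (-1.64 ± 0.17, limma adjusted p = 1.62e-10). The antibody receptors Fcgr1a and Fcgr3a fell 3.58-fold and 3.84-fold, Gpnmb, a glycoprotein of lipid-loaded macrophages, 3.25-fold, and Csf1r, the growth factor receptor of the lineage, 2.07-fold. Fcnb, a soluble lectin made by myeloid cells, gave 10.21, 8.69, 8.43 and 8.72 in the 4 w rats, against 12.01, 12.16, 11.90 and 11.84 in the 5 d rats, and its 7.81-fold fall was the third largest among the genes called, in log2 units (-2.97 ± 0.30, limma adjusted p = 6.18e-11). The myeloid surface receptors Cd300c2 and Slamf9 fell 4.54-fold and 4.45-fold. Vcan, the matrix proteoglycan versican that monocytes also make, fell 5.5-fold with all 5 of its probe sets pointing down, and Slc28a2, a nucleoside transporter, 5.82-fold. Cd14, the co-receptor for bacterial lipopolysaccharide, missed the threshold (-0.38 ± 0.16, limma adjusted p = 0.115, but 0.000214 with the beta-actin covariate).

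Among T and cytotoxic lymphocyte genes 18 of 32 fell and 0 rose (median -0.58). Gzmb, the cell-killing protease of cytotoxic cells, gave 5.98, 4.78, 5.66 and 5.38 in the 4 w rats, against 8.10, 8.89, 6.91 and 7.37 in the 5 d rats. After 4 w all 4 values were under 6, so no fold is given for the log2 difference of -2.37 ± 0.24 (limma adjusted p = 5.45e-11). Klrk1, the NKG2D receptor, gave 6.39, 6.05, 6.34 and 6.24 in the 4 w rats, against 7.77, 8.10, 7.57 and 7.56 in the 5 d rats, a 2.82-fold fall (limma adjusted p = 6.32e-10), and Nkg7, a protein of cytotoxic granules, fell 3.07-fold (limma adjusted p = 8.51e-09). The co-receptor Cd8a of cytotoxic T cells fell (-1.52 ± 0.20, limma adjusted p = 1.03e-07). Of the CD3 chains that all T cells carry, Cd3g fell (-0.43 ± 0.14, limma adjusted p = 0.0371, but 0.138 to 0.317 without any one of animals 365, 368 and 356). Cd3d (-0.60 ± 0.27, limma adjusted p = 0.161, but 0.0363 without animal 358 and 0.0291 with the beta-actin covariate) and Cd3e (-0.37 ± 0.21, limma adjusted p = 0.285) did not pass, and neither did the signalling kinase Lck (-0.33 ± 0.12, limma adjusted p = 0.072, but 0.018 and 0.0325 without either of animals 358 and 359). Of 8 class II presentation genes 6 fell, among them RT1-DMb, which loads peptides, 1.85-fold (limma adjusted p = 0.000111) and the invariant chain Cd74 1.42-fold (limma adjusted p = 0.00643, but 0.0548 without animal 368). B cell and plasma cell genes had 1 of 13 called, the epithelial and plasma cell proteoglycan Sdc1, which was higher (0.50 ± 0.14, limma adjusted p = 0.0132, but 0.0518 and 0.0621 without either of animals 368 and 359). With the beta-actin covariate 0 genes of that list rose and 1 fell.

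The 5 d rats differed among themselves. Animal 358 had the lowest mean signal of its group for the interferon, macrophage, T cell and cytokine lists and the highest for the squamous list, and animal 356 had the highest for the same 4 immune lists and the lowest for the squamous list. For interferon response the means were 9.32, 8.60, 9.07 and 8.86 in the 4 w rats, against 10.11, 10.24, 9.63 and 9.80 in the 5 d rats, in the order of animals 362, 365, 368 and 369 and of 354, 356, 358 and 359. Even animal 358 stayed above every 4 w rat on the interferon, neutrophil, macrophage, T cell and cytokine means. Without it 1636 genes were called, and without animal 356 the T cell list kept 12 falls.

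Transcripts of tissue beneath the epithelium had medians below 0 after 4 w at both doses. The fibroblast, cartilage and bone list had a median of -0.92 at 15 ppm and -0.71 at 0.7 ppm, and the endothelium and blood list -0.69 and -0.64. Few members passed the test, 4 of 37 and 5 of 20 lower at 15 ppm and 0 at 0.7 ppm, where 15 and 12 were lower at an unadjusted p under 0.05. Counts without single animals ran from 1 (without 368 or 356) to 15 (without 362) for the first list and from 2 (without 365, 354 or 356) to 12 (without 358 or 359) for the second. Animals 365 and 354 left out gave 2 falls each in the first list, 359 gave 10 and 358 gave 8, and animal 368 left out gave 3 in the second. With the beta-actin covariate the counts were 11 and 10. Osteocalcin (Bglap) gave 13.36, 11.86, 10.92 and 12.54 in the 4 w rats, against 13.78, 13.69, 12.62 and 12.25 in the 5 d rats, and animals 362 and 369 of the later time lay within the range of the earlier (limma adjusted p = 0.198). Pecam1, the endothelial adhesion molecule, averaged 6.90 ± 0.17 in the 4 w rats and 7.91 ± 1.12 in the 5 d rats at 15 ppm, and 6.79 ± 0.33 and 7.67 ± 0.54 at 0.7 ppm, with log2 differences of -1.01 ± 0.31 (limma adjusted p = 0.0254, but 0.0556 to 0.294 without any one of animals 365, 368, 354 and 356) and -0.89 ± 0.31 (limma adjusted p = 0.223). Whether this shift played a part in the falls of matrix or immune genes was not tested.

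In the ciliated, muscle, secretory and olfactory lists few genes were called between the times. None of 54 ciliated cell genes and 20 muscle genes was called in either direction by limma, and 2 and 3 of them were lower at an unadjusted p under 0.05. Without animal 354, 1 ciliated cell gene fell, and 1 muscle gene fell without 358 or 359 and 2 with the beta-actin covariate. Against 0.7 ppm, 36 of the 54 ciliated cell genes were lower and 1 higher at 4 w. At 5 d 15 were lower and 1 higher. Of all genes 16.1% were lower at 4 w and 16.8% at 5 d, and the ciliated list's medians were -0.51 and -0.33. Foxj1, the master factor of motile cilia, gave 10.36, 9.91, 10.39 and 9.84 in the 4 w rats, against 10.40, 9.96, 10.45 and 10.51 in the 5 d rats, with overlapping groups (-0.20 ± 0.17, limma adjusted p = 0.537). Among 41 secretory, goblet and gland genes 3 fell, or 1 without animal 356, and 2 rose, near the 6.08% and 4.56% of all genes. The falls included lysozyme (Lyz2), which macrophages also make, at 2.54-fold (limma adjusted p = 1.9e-05), while the secreted defence protein Bpifa1 (0.044, limma adjusted p = 0.663) and the gel-forming mucin Muc5ac (0.52 ± 0.58, limma adjusted p = 0.679) did not pass, Muc5ac being highest in animal 368, at 12.22 units. Of 28 olfactory genes 1 was called, the calcium sensor Ncald, lower at a limma adjusted p of 0.0308 but at 0.0537 to 0.102 without any one of animals 365, 368, 369, 356 and 359. With the beta-actin covariate 1 olfactory gene rose and 0 fell, and the list's median was -0.013 at 15 ppm and 0.54 at 0.7 ppm.

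Cdkn2a showed the largest rise among the genes called. The locus encodes p16Ink4a and p19Arf, which halt the cell cycle through the retinoblastoma and p53 pathways. Its signal was 9.08, 9.01, 9.16 and 9.03 in the 4 w rats, against 4.75, 5.17, 4.89 and 5.20 in the 5 d rats. Every 5 d value was under 6 and every 4 w value above 9, and the spread within the 4 w rats was only 0.07 log2 units (SD). The difference was 4.07 ± 0.24 log2 units (SE, limma adjusted p = 7.9e-19), for which no fold is given because the 5 d signal was low. At 0.7 ppm the gene stayed at low signal at both times, 4.75, 5.21, 4.60 and 4.81 at 4 w and 4.76, 4.43, 4.54 and 4.59 at 5 d. At 15 ppm the third time point, 13 w, averaged 9.84 ± 0.73.

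**Figure D3:**
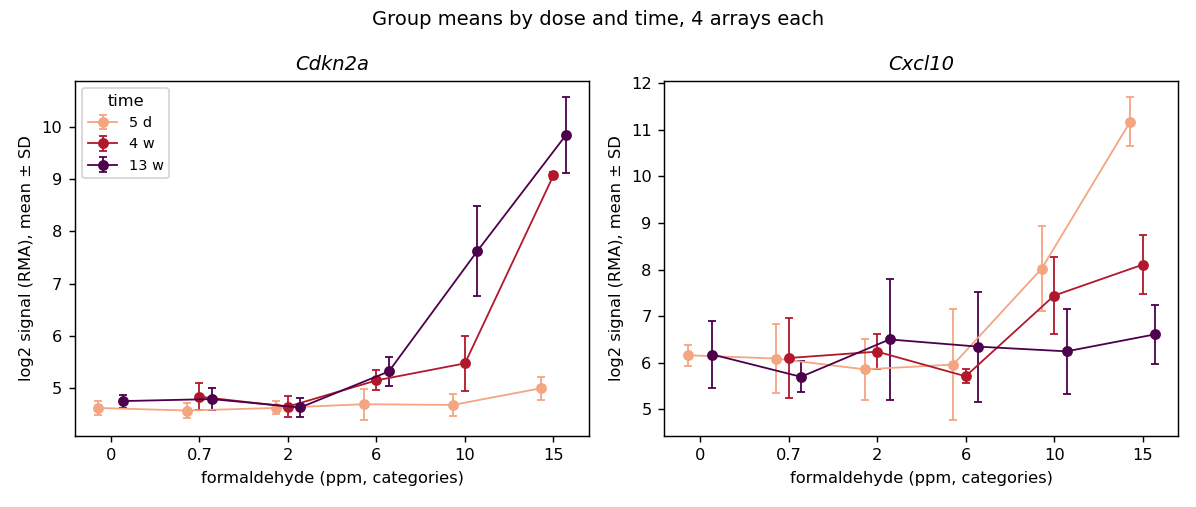
Mean log2 signal with SD (4 arrays per group) of Cdkn2a and Cxcl10 at each dose in ppm, shown as categories, after 5 d, 4 w and 13 w. Cdkn2a is near 5 in all 5 d groups and reaches 9.07 at 15 ppm after 4 w, and Cxcl10 is highest, at 11.18, at 15 ppm after 5 d.

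Across the other doses Cdkn2a averaged 4.68 ± 0.21 at 5 d, 5.48 ± 0.52 at 4 w and 7.63 ± 0.87 at 13 w of 10 ppm, and 4.70 ± 0.30, 5.15 ± 0.19 and 5.32 ± 0.29 at the same times of 6 ppm. No 4 w group below 15 ppm came within 3 log2 units of the 15 ppm mean. Cxcl10 ran the other way in time at 15 ppm, with 11.18 ± 0.52 at 5 d, 8.11 ± 0.64 at 4 w and 6.61 ± 0.64 at 13 w.

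Squamous differentiation genes rose. Of 34 measured genes of the squamous and cornified envelope list 13 were called higher and 0 lower, set beside 4.56% and 6.08% of all genes, and all 34 differences were above 0, as were 7158 of 14217 over all genes. The median was 0.64 at 15 ppm and -0.24 at 0.7 ppm. The number called depended on single rats, with 5 without animal 368, 8 without 369, 6 without 354, 7 without 356 and 20 without 358, while the median stayed between 0.53 and 0.73. Ppl, the plakin that lines the cornified envelope, gave 11.86, 12.18, 12.34 and 12.17 in the 4 w rats, against 11.31, 11.29, 11.46 and 11.18 in the 5 d rats, without overlap and 1.77-fold higher (0.83 ± 0.18, limma adjusted p = 0.00121). Its partner Evpl rose 1.87-fold (limma adjusted p = 0.00363) and the desmosomal plakophilin Pkp3 1.45-fold (limma adjusted p = 0.00611, but 0.0589 with the beta-actin covariate).

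Among the largest rises were further products of stratified epithelium. Sprr3, a small proline-rich envelope protein, gave 12.68, 12.96, 13.32 and 13.06 in the 4 w rats, against 10.91, 10.13, 11.80 and 11.27 in the 5 d rats. The groups did not overlap, but animal 358 of the earlier time came closest to the later group, and the 3.95-fold rise had a wide error (1.98 ± 0.65, limma adjusted p = 0.0374). Its adjusted p was 0.0738 to 0.149 without any one of animals 365, 368, 369, 354 and 356. Calml5, a calmodulin-like protein of skin, rose 3.28-fold (limma adjusted p = 0.0124, but 0.0751 without animal 356), cornifelin (Cnfn) 3.05-fold (limma adjusted p = 0.0208, but 0.0562 to 0.0848 without any one of animals 368, 354 and 356) and Spink5, an inhibitor of skin proteases, 2.91-fold (limma adjusted p = 0.0085, but 0.0667 without animal 356). The protease Tmprss11d rose 3.92-fold (limma adjusted p = 0.000642), and Ly6g6c, a small surface protein, gave 11.98, 12.16, 12.44 and 12.20 in the 4 w rats, against 10.06, 9.94, 10.75 and 10.17 in the 5 d rats, a 3.9-fold rise without overlap (1.96 ± 0.33, limma adjusted p = 1.52e-05).

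Sprr1a and Sprr1b, envelope precursors already abundant after 5 d, did not pass. Sprr1a gave 14.59, 14.67, 14.77 and 14.71 in the 4 w rats, against 13.96, 13.91, 14.38 and 14.12 in the 5 d rats, without overlap. It was not called (0.59 ± 0.38, limma adjusted p = 0.374, but 0.021 with the 8 arrays fitted alone). Sprr1b overlapped (0.90 ± 0.40, limma adjusted p = 0.156, but 0.0474 without animal 358). Against 0.7 ppm, Sprr1b differed by 6.23 at 4 w and 5.31 at 5 d. Sprr3, in contrast, differed from 0.7 ppm by 4.08 at 4 w (limma adjusted p = 9.32e-07) and by 0.51 at 5 d (limma adjusted p = 0.595).

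**Figure D4:**
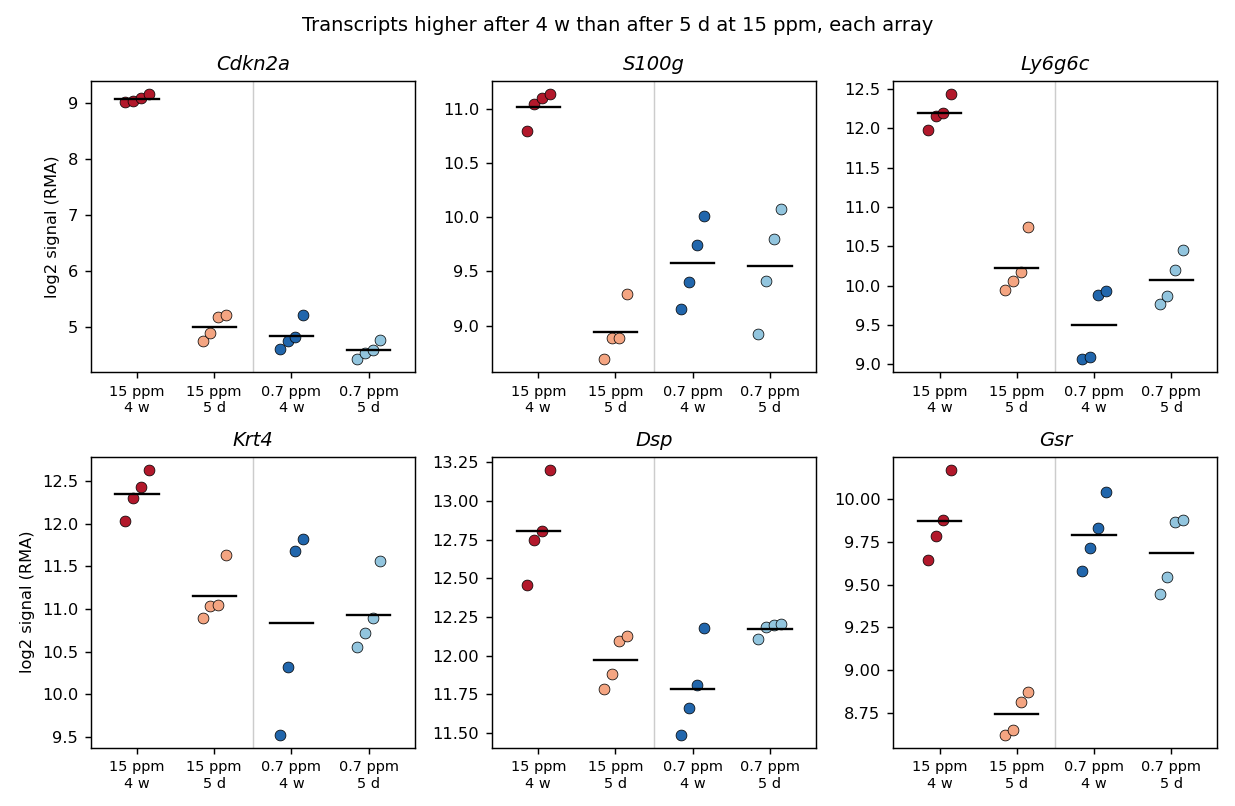
Log2 signal of 6 transcripts on each array (points) with the group mean (bar), for 15 ppm at 4 w and 5 d and for 0.7 ppm at 4 w and 5 d. In every panel the 4 arrays of 15 ppm at 4 w lie above the 4 of 15 ppm at 5 d, and Gsr after 5 d at 15 ppm lies below both 0.7 ppm groups.

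Of 19 measured keratin genes 6 rose and 0 fell (median 0.35), while with the beta-actin covariate 3 rose and 2 fell. Krt4, a keratin of stratified mucosa, gave 12.03, 12.43, 12.63 and 12.30 in the 4 w rats, against 10.90, 11.04, 11.63 and 11.04 in the 5 d rats, a 2.29-fold rise without overlap (1.19 ± 0.32, limma adjusted p = 0.00794, but 0.0666 with the beta-actin covariate). Its pairing partner Krt13 rose 2.91-fold (limma adjusted p = 0.0127, but 0.0587 and 0.0639 without either of animals 354 and 356 and 0.111 with the beta-actin covariate). Krt79 and Krt78 rose 3.04-fold and 2.24-fold, and the basal keratin Krt15 rose 1.23-fold (0.30 ± 0.06, limma adjusted p = 0.000313). The other basal keratins Krt14 (0.061 ± 0.10, limma adjusted p = 0.81) and Krt5 (0.19 ± 0.15, limma adjusted p = 0.509) and the injury-associated Krt6c (0.35 ± 0.23, limma adjusted p = 0.38) were not called. Each of these 3 was above 0.7 ppm at both times, Krt14 by 1.33 at 4 w and 0.94 at 5 d.

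Basal and general epithelial genes rose for 12 of 35 and fell for 0, or for 1 with the beta-actin covariate (median 0.25). Desmoplakin (Dsp), which anchors keratin to desmosomes, gave 12.46, 12.75, 13.20 and 12.81 in the 4 w rats, against 12.13, 11.78, 12.10 and 11.88 in the 5 d rats, a 1.78-fold rise (0.83 ± 0.17, limma adjusted p = 0.000468) on the brighter of 2 probe sets that differed in sign. Grhl1, a regulator of desmosomal genes, rose 1.61-fold (limma adjusted p = 3.44e-05), Tp63, the master factor of basal cells, 1.36-fold (limma adjusted p = 0.000767) and E-cadherin (Cdh1) 1.29-fold (limma adjusted p = 0.000275, which was not called in the mean of its 2 probe sets). Perp, a desmosomal protein that p53 and p63 induce, rose 1.42-fold (limma adjusted p = 0.000292). S100g, the calcium-binding protein calbindin-D9k, gave 10.79, 11.13, 11.10 and 11.05 in the 4 w rats, against 8.88, 8.69, 9.29 and 8.89 in the 5 d rats, a 4.22-fold rise, second only to that of Cdkn2a among the genes called (2.08 ± 0.29, limma adjusted p = 3.76e-07). Golph3, a Golgi protein, rose 2.65-fold (limma adjusted p = 9.2e-09) and the calcium-binding Ocm 2.62-fold (limma adjusted p = 4.97e-05).

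Glutathione and antioxidant genes, the targets of the factor Nrf2, rose for 14 of 52 and fell for 3, or for 1 without animal 356 (median 0.22). Gsr, which regenerates reduced glutathione, gave 9.88, 9.78, 9.65 and 10.17 in the 4 w rats, against 8.81, 8.87, 8.62 and 8.65 in the 5 d rats. All 4 w rats lay above all 5 d rats, and the rise was 2.19-fold (1.13 ± 0.16, limma adjusted p = 5.2e-07). Slc7a11, which imports the cystine needed to make glutathione, rose 2.26-fold (limma adjusted p = 0.000654), and Nqo1, Me1 and Ugdh, enzymes of quinone reduction, NADPH supply and glucuronic acid supply, rose 1.37-fold, 1.43-fold and 1.38-fold. Hmox1, the haem-degrading stress enzyme, was not called (-0.014 ± 0.22, limma adjusted p = 0.985). The number of rises fell to 8 with the beta-actin covariate, to 8 without animal 359 and to 9 without animal 369.

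The same enzymes were also set against 0.7 ppm. Gsr differed from the 0.7 ppm rats by 0.078 log2 units at 4 w (limma adjusted p = 0.754) and by -0.94 at 5 d (limma adjusted p = 3.55e-06). Nqo1 was 0.20 units from 0.7 ppm at 4 w and -0.28 at 5 d. Over the list, 19 genes exceeded their 0.7 ppm level and 12 fell below it at 4 w (21.3% and 16.1% of all genes), and 12 exceeded it and 19 fell below it at 5 d (20.5% and 16.8% of all genes).

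Of 24 genes of enzymes that oxidise aldehydes 4 rose and 0 fell, set beside 4.56% and 6.08% of all genes. At an unadjusted p under 0.05, 5 were lower. In that list 1 gene fell without animal 362, 369 or 359 and 2 without 358 or with the beta-actin covariate. Aldh2, the mitochondrial aldehyde dehydrogenase, gave 12.64, 12.69, 12.50 and 12.80 in the 4 w rats, against 12.40, 12.26, 12.07 and 11.83 in the 5 d rats, without overlap (0.52 ± 0.12, limma adjusted p = 0.00152). It differed from 0.7 ppm by -0.74 at 4 w and -1.22 at 5 d, both called. Adh7, a class IV alcohol dehydrogenase, gave 11.92, 12.07, 11.86 and 11.92 in the 4 w rats, against 11.34, 11.32, 11.34 and 10.11 in the 5 d rats, with animal 359 below the other 3 of its group (0.91 ± 0.16, limma adjusted p = 3.79e-05). Aldh3a1 and Aldh1a1 rose 1.38-fold and 1.23-fold, the call of Aldh3a1 being lost with the beta-actin covariate (limma adjusted p = 0.0625). With the 8 arrays fitted alone all 4 calls were lost. The limma adjusted p was then 0.0997 for Adh7, 0.062 for Aldh2, 0.143 for Aldh3a1 and 0.0744 for Aldh1a1. Adh5, the glutathione-dependent formaldehyde dehydrogenase, gave 11.97, 12.02, 11.85 and 11.89 in the 4 w rats, against 11.90, 11.71, 12.19 and 12.11 in the 5 d rats, with overlapping groups (-0.043 ± 0.11, limma adjusted p = 0.883). Among 43 P450 and xenobiotic genes 2 rose, Cyp2f4 1.23-fold and Cyp3a9 1.46-fold, and Cyp2s1 fell 1.28-fold (limma adjusted p = 0.0284, but 0.0514 to 0.14 without any one of animals 362, 365, 369 and 354). P450 rises numbered 4 without animal 368 or 356 and falls 2 without 359, and with the beta-actin covariate 1 rose and 0 fell. The call of Cyp3a9 was lost with the beta-actin covariate, at 0.054, while the abundant nasal P450 Cyp2a3 was not called (0.092 ± 0.12, limma adjusted p = 0.748).

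Proliferation genes lay above 0.7 ppm at both times. None of 54 mitosis and 45 S phase genes was called by limma between 4 w and 5 d, with medians of -0.020 and -0.0055. At an unadjusted p under 0.05, 3 mitosis genes were higher and 3 lower, and 4 S phase genes were lower. With the beta-actin covariate 1 mitosis gene rose and 4 fell, and 4 S phase genes fell. Leaving out single animals gave 2 mitosis genes higher without 358, 1 higher without 362 and 1 lower without 369 or 359. Against the 0.7 ppm rats 52 mitosis genes were higher at 4 w and 50 at 5 d (21.3% and 20.5% of all genes), with medians of 1.5 and 1.28. Mki67, the marker of cycling cells, gave 9.65, 9.76, 9.95 and 9.75 in the 4 w rats, against 9.92, 9.96, 9.68 and 9.44 in the 5 d rats. The ranges overlapped (0.029 ± 0.23, limma adjusted p = 0.968), and both lay above 0.7 ppm, by 2.09 at 4 w and 1.46 at 5 d. Pcna, the sliding clamp of DNA replication, had a difference of -0.18 ± 0.07 and was not called (limma adjusted p = 0.0979, but 0.0159 with the beta-actin covariate). Among 42 ribosome biogenesis genes 1 was called, Utp20, which was higher (limma adjusted p = 0.0415, but 0.0751 to 0.28 without any one of animals 368, 358 and 359), 2 were lower at an unadjusted p under 0.05, and 2 rose without 354 or 356, while 2 rose and 1 fell with the beta-actin covariate and 1 fell without 359. Of these 42 genes 38 were higher than at 0.7 ppm at 4 w and 36 at 5 d.

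**Figure D5:**
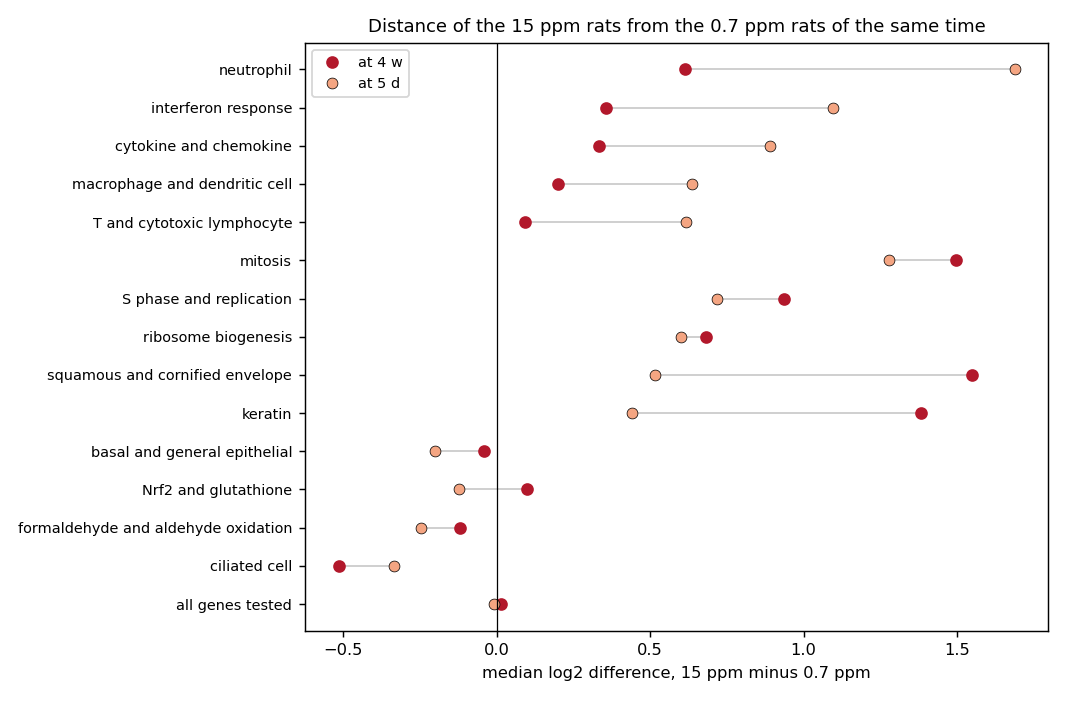
Median log2 difference, 15 ppm minus 0.7 ppm, of the measured genes of 14 lists and of all genes tested, at 4 w (dark circles) and at 5 d (light circles). The neutrophil list is at 0.62 at 4 w and 1.69 at 5 d, the squamous list at 1.55 and 0.52, and the mitosis list at 1.5 and 1.28.

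The distances from 0.7 ppm share their 15 ppm arrays with the time comparison and are set side by side without a test. Of all genes 21.3% were called above 0.7 ppm after 4 w and 20.5% after 5 d. After 4 w the interferon list had 13 of 39 members above 0.7 ppm, against 35 after 5 d. The neutrophil list had 7 of 13 after 4 w, against 13 after 5 d. The squamous list had 29 of 34 members above 0.7 ppm after 4 w, against 9 after 5 d, and the keratin list 14 of 19, against 10. The 0.7 ppm rats also moved between the times. Their median change was -0.24 for the squamous, -0.21 for the keratin, -0.13 for the interferon and -0.27 for the neutrophil list. Its part in these distances was not tested. A total of 5318 genes (37.4%) differed between the doses at 4 w and 5307 (37.3%) at 5 d.

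Stress and repair genes gave small and mixed differences. The counts of this paragraph stand beside 4.56% of all genes higher and 6.08% lower. Of 22 p53 targets 3 rose, or 1 without animal 365, 354, 356 or 359, and 1 fell. Gadd45a, a growth arrest gene, gave 10.88, 10.50, 10.71 and 10.69 in the 4 w rats, against 11.76, 11.39, 11.64 and 11.60 in the 5 d rats, a 1.87-fold fall without overlap (-0.91 ± 0.13, limma adjusted p = 7.13e-07), while the cell cycle inhibitor Cdkn1a overlapped (-0.11 ± 0.14, limma adjusted p = 0.731) and lay above 0.7 ppm by 1.81 at 4 w and 1.84 at 5 d. Of 38 DNA repair genes 2 rose and 1 fell, Xpa, which verifies damaged DNA, rising 1.45-fold (limma adjusted p = 0.000109). The 2 repair rises became 1 without animal 362, 365, 369, 354, 356 or 359, the fall was lost without 356, and with the beta-actin covariate 1 rose and 2 fell. Of 35 unfolded protein and integrated stress genes 2 rose and 3 fell, among them the stress factor Ddit3, 1.6-fold lower (limma adjusted p = 0.00251, but 0.065 with the beta-actin covariate). The 2 rises of that list became 1 without animal 368, 369, 354 or 356, and the 3 falls became 5 without 358 and 7 with the covariate. Of 25 heat shock and metallothionein genes 2 rose, the co-chaperone Dnajb1 1.43-fold and the small heat shock protein Hspb8 1.35-fold, both calls being lost with that covariate (limma adjusted p = 0.0532 and 0.173), with which 1 gene of the list rose and 2 fell.

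Of 38 wound repair and matrix turnover genes 8 fell and 0 rose, set beside 6.08% and 4.56% of all genes. Mmp3, a protease that cleaves matrix, gave 8.65, 7.06, 8.15 and 8.20 in the 4 w rats, against 8.79, 11.53, 9.73 and 9.90 in the 5 d rats, a 3.93-fold fall (-1.98 ± 0.39, limma adjusted p = 0.000226, but 0.0915 with the 8 arrays fitted alone). Its highest 4 w array lay just under its lowest 5 d array. Fst, an antagonist of activin, fell 1.87-fold (limma adjusted p = 0.0102, but 0.0732 without animal 365) but remained 4.08 above 0.7 ppm at 4 w, against 4.57 at 5 d. Areg, an epidermal growth factor receptor ligand, overlapped between the times (-0.048 ± 0.32, limma adjusted p = 0.964), at 5.23 above 0.7 ppm at 4 w and 4.76 at 5 d. Among 35 growth factor and immediate early genes 2 rose, near the 4.56% of all genes. They were the receptor Erbb2, 1.35-fold (limma adjusted p = 0.0123, but 0.166 with the beta-actin covariate), and the epithelial factor Klf4, 1.4-fold (limma adjusted p = 0.0224, but 0.0615 to 0.0895 without any one of animals 368, 369, 354, 356 and 359). In the growth factor list 1 gene fell without animal 358 and 2 with the beta-actin covariate.

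In energy metabolism 5 of 31 glycolysis and hypoxia genes fell and 2 rose. Over all genes 6.08% fell and 4.56% rose, the shares to set beside each count of this paragraph. The falls became 3 without animal 365, 369, 354 or 356, and the rises became 0 without 368, 369 or 358 and 1 without 354 or 359. The falls included the lactate exporter Slc16a3, 2.1-fold (limma adjusted p = 1.39e-07), which gave 7.28, 7.09, 7.62 and 7.08 in the 4 w rats, against 8.86, 8.38, 7.81 and 8.31 in the 5 d rats without overlap. The glycolytic enzymes Aldoa (-0.011, limma adjusted p = 0.962) and Pgk1 (-0.057, limma adjusted p = 0.752) were not called. Of 45 respiratory chain genes 3 fell, near the share over all genes. Among them was the succinate dehydrogenase subunit Sdhb, 1.16-fold lower (limma adjusted p = 0.0144, but 0.0582 to 0.123 without any one of animals 368, 356 and 358). Falls in the respiratory chain list numbered 1 without animal 365, 0 without 368, 356 or 358 and 9 with the beta-actin covariate, with which 1 rose. Cholesterol synthesis genes rose for 2 of 19, Sc5d 1.39-fold and Dhcr7 1.24-fold (limma adjusted p = 0.0112, but 0.0729 without animal 368), and such rises numbered 4 without animal 358. Of 18 clock genes Nfil3, a repressor, fell 1.82-fold (limma adjusted p = 2.75e-05) and Clock, the core activator, rose 1.33-fold (limma adjusted p = 0.000454).

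Few genes passed the test in the matching time difference at 0.7 ppm. There 16 genes (0.113%) were called, 9 higher (0.0633%) and 7 lower (0.0492%) after 4 w. An unadjusted p under 0.05 was reached by 1634 (11.5%), 467 higher and 1167 lower. Among the genes called there the largest rises were Ehf, an epithelial transcription factor (0.88 ± 0.19, limma adjusted p = 0.0411), Lactb, a mitochondrial protein (0.78 ± 0.17), Kpna1, a nuclear import receptor (0.51 ± 0.11), Ubl5, a ubiquitin-like protein (0.50 ± 0.10), and Ggact, which breaks down crosslinks (0.49 ± 0.09). The largest falls among them were the mitotic phosphatase Cdc25b (-1.23 ± 0.26, limma adjusted p = 0.0339), the cell cycle factor E2f2 (-0.87 ± 0.19), the plasminogen activator Plau (-0.80 ± 0.18), Megf6 (-0.57 ± 0.13) and Zfr2 (-0.50 ± 0.10). At 15 ppm, Ehf (0.60), Kpna1 (0.42), Ggact (0.42) and Plau (-0.67) were called in the same direction, and the other 6 were not called. The 15 ppm adjusted p of Ehf was 0.0571 to 0.105 without any one of animals 365, 368, 369, 354 and 359, and that of Kpna1 0.058 and 0.0685 without either of animals 365 and 354. Leaving out single 0.7 ppm animals gave 0 calls without 250 or 237, 3 without 242, 6 without 234, 7 without 235, 8 without 245, 10 without 243 and 33 without 240. The mitosis list had a median of -0.22 at this dose, with 20 of 54 members lower at an unadjusted p under 0.05 and 1, Cdc25b, called.

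The time changes at the 2 doses were tested against each other in the same fit. They differed for 490 genes (3.45%), with the 15 ppm change above the 0.7 ppm change for 225 (1.58%) and below it for 265 (1.86%). Cdkn2a had the largest positive difference of changes, 3.80 ± 0.34 log2 units (limma adjusted p = 2.53e-11), followed by C20h6orf15 (3.72 ± 1.12, limma adjusted p = 0.047), Sprr3 (3.56 ± 0.92, limma adjusted p = 0.0157), Cnfn (3.0 ± 0.69) and the aldo-keto reductase Akr1c3 (2.88 ± 0.79). The 0.7 ppm changes of the last 4 were -1.63, -1.58, -1.39 and -1.02, none of them called. At 15 ppm the 4 changes were 2.09 (limma adjusted p = 0.0817), 1.98, 1.61 and 1.86, and that of Akr1c3 was called (limma adjusted p = 0.0197, but 0.0534 to 0.0934 without any one of animals 368, 369, 356 and 359). The largest negative differences were those of Cxcl11 (-3.51 ± 0.72, limma adjusted p = 0.00158), Cxcl10 (-3.08 ± 0.76), Ccl7 (-2.71 ± 0.34), Gzmb (-2.44 ± 0.34) and Fcnb (-2.41 ± 0.43), all with 0.7 ppm changes between -0.55 and 0.15. By list, the test of the difference called 12 of 32 T cell genes, 11 of 28 macrophage genes, 8 of 39 interferon genes and 7 of 42 cytokine genes as lower, and 9 of 52 Nrf2, 8 of 34 squamous and 5 of 19 keratin genes as higher. Of 13 neutrophil genes 3 were called lower in that test. No gene of the fibroblast and endothelium lists was called in it.

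Some genes lay on one side of 0.7 ppm at 5 d and on the other at 4 w, passing the test at both times. Among those that rose, Pof1b, an actin-binding protein of epithelial junctions, gave 11.82, 11.84, 12.03 and 11.92 in the 4 w rats, against 11.03, 11.31, 11.40 and 10.83 in the 5 d rats, and was 0.32 from 0.7 ppm at 4 w and -0.36 at 5 d. The junction protein Nectin4 was at 0.43 and -0.40, Oga, which removes O-linked N-acetylglucosamine, at 0.26 and -0.55, Grhl1 at 0.31 and -0.42 and the secretory GTPase Rab3d at 0.47 and -0.29. Among those that fell, Cd302, a lectin receptor of myeloid cells, gave 9.97, 9.36, 9.03 and 9.08 in the 4 w rats, against 10.46, 10.46, 10.46 and 10.12 in the 5 d rats, and was at -0.84 at 4 w and 0.49 at 5 d. The nucleotide sugar receptor P2ry14 was at -0.54 and 0.41, the leukocyte actin bundler Lcp1 at -0.40 and 0.31, Rassf4 at -0.42 and 0.50 and Bbip1, a subunit of the ciliary BBSome, at -0.31 and 0.28. The time difference of Bbip1 itself had a limma adjusted p of 0.0219, but 0.0688 to 0.085 without any one of animals 368, 358 and 359.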

How the data were processed

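Affymetrix Rat Genome 230 2.0 arrays, 1 per rat, measured RNA of nasal epithelial cells. The authors deposited log2 signal values, made with GCOS 1.0 and the RMA method, per the submitters' processing notes, and these were used without further scaling. The array medians lay between 6.82 and 6.96. Groups came from the labels (68 arrays, 17 groups of 4 rats), and 0 columns were left unused. Of 31099 probe sets, 57 controls, 436 with several gene symbols and 9780 with none were left out of the tests. The brightest probe set stood for each of 14217 genes, of which 4525 had 2 or more.

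With limma 3.58.1 in R 4.3.3, 1 mean per group was fitted to all 68 arrays (51 residual degrees of freedom), followed by eBayes and Benjamini-Hochberg adjustment over all genes. Calls were made at an adjusted p under 0.05, and a log2 mean under 6 was taken as low signal. The fit was tested on simulated data. The comparison, its members, the gene lists and the tests were chosen with earlier results of these data known, and 1016 of 1220 list symbols matched a measured gene.

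Genes named were taken from the 15 largest changes per direction among those called without overlap of the groups and with a mean of at least 7, up to 4 called and 2 uncalled members of each list, the 5 largest per sign in the difference of time changes, at 0.7 ppm and among genes on opposite sides of 0.7 ppm at the 2 times, 16 fixed genes and the cell type markers. The alternatives were scaling, a signal filter, treatment of probe sets, a 1.5-fold minimum, smaller fits, eBayes settings, array weights, covariates of RNA quality, and leaving out each animal. The 13 w arrays and the other doses entered the fit and were otherwise only described. Promoter sequences came from RefSeq GRCr8.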

Additional observations from a re-analysis of the deposited data

Results flagged for a closer look

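Single rats stood apart from the other 3 of their group in 22 of 300 groups of 4 tested by Dixon's ratio, which chance flags in about 1 of 20 groups. Among the 4 w rats at 15 ppm, animal 362 was high for Fcnb (10.21 log2 units), Lyz2 (13.66), P2ry14 (8.40) and Rassf4 (7.44). Animal 368 was high for Cdkn1a (11.80), Pkp3 (10.44), Plau (9.47) and Utp20 (8.90) and low for Sdhb (11.40), animal 369 was high for Ugdh (12.08), and animal 365 was low for Cd3e (6.67). Among the 5 d rats at 15 ppm, animal 359 was low for Adh7 (10.11), Aldh3a1 (13.00), Cd302 (10.12), Dnajb1 (10.79), Il33 (11.58) and Krt15 (14.04) and high for Rassf4 (8.17). The same animal had the highest difference of the 3' and 5' beta-actin controls (2.59). Animal 358 was low for Ccl7 (9.68) and high for Krt78 (8.69), and animal 356 was high for Cd3g (10.07).

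The time change differed between 15 ppm and 0.7 ppm for 490 genes in the limma test of that difference. The 15 ppm change exceeded the 0.7 ppm change by 3.80 log2 units for Cdkn2a, 3.72 for C20h6orf15, 3.56 for Sprr3, 3.0 for Cnfn and 2.88 for Akr1c3. The difference was -3.51 for Cxcl11, -3.08 for Cxcl10, -2.71 for Ccl7, -2.44 for Gzmb and -2.41 for Fcnb.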

How the results depend on the processing

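Of the 104 called genes named, 0 changed sign in a setting run for them, whereas 18 of the 43 not called did. The balance of calls turned in some settings. At 15 ppm, 649 were higher and 865 lower, against 878 and 708 after median centring of the arrays and 596 and 538 without animal 356. At 0.7 ppm, 9 were higher and 7 lower, against 43 and 111 with array weights, 13 and 22 with the beta-actin covariate, 6 and 7 after cyclic loess, 2 and 3 at 1.5-fold or more, 7 and 26 without animal 240, 2 and 6 without 245 and 1 and 2 without 242. The difference of the time changes was positive for 225 and negative for 265, against 218 and 206 without 242, 239 and 214 without 240 and 247 and 198 without 356. The 1514 calls of 4 w against 5 d at 15 ppm became 618 with a 1.5-fold minimum, 594 with the 8 arrays alone and 2342 with the beta-actin covariate. The 16 calls at 0.7 ppm became 70 over every probe set, 5 with the 1.5-fold minimum, 3 with the 16 arrays of the 4 groups, 0 with 8 arrays, 154 with array weights, 1 with the RNA integrity number and 35 with the beta-actin covariate. The 490 calls of the difference became 210 with 16 arrays and 847 with the beta-actin covariate. The dose comparisons, with 5318 calls at 4 w and 5307 at 5 d, gave 1745 and 1693 at 1.5-fold or more. The smaller fits have fewer residual degrees of freedom, and the 1.5-fold minimum removes calls by its construction; the cause of the other moves was not tested. Leaving out single animals gave 1098 to 1636 calls at 15 ppm, 0 to 33 at 0.7 ppm, 349 to 577 for the difference, 4600 to 5035 for the doses at 4 w and 4575 to 5320 at 5 d. Of the 104, 66 were called in every setting run for them and 38 lost the call in at least 1, while 12 of the 43 not called passed in at least 1. No paired analysis was possible because the animal numbers of the groups are all different. With 4 arrays a group, the median standard error was 0.104 log2 units, and signals under 6 gave no folds.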

Other observations

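At 13 w of 15 ppm, a time outside the comparison, the squamous genes named above had the following means (SD, n = 4). Sprr3 averaged 11.03 ± 0.70 at 5 d, 13.01 ± 0.26 at 4 w and 13.51 ± 0.18 at 13 w, and Krt13 averaged 11.61 ± 0.68, 13.15 ± 0.26 and 13.72 ± 0.13 at the same times. Involucrin (Ivl), the main scaffold protein of the cornified envelope, averaged 5.44 ± 0.33 at 5 d, 6.23 ± 0.44 at 4 w and 7.57 ± 0.85 at 13 w. Its 13 w mean was the only one of the 3 above 7 log2 units, and it was not called between 4 w and 5 d (limma adjusted p = 0.0635). Tp63 averaged 10.03 ± 0.10, 10.47 ± 0.11 and 10.75 ± 0.10. Among the inflammatory genes Fcnb averaged 11.98 ± 0.14 at 5 d, 9.01 ± 0.81 at 4 w and 7.68 ± 0.71 at 13 w, and Isg15 13.34 ± 0.15, 11.56 ± 0.56 and 9.90 ± 0.66. Foxj1 averaged 10.33 ± 0.25, 10.12 ± 0.29 and 9.65 ± 0.27. These are means of 4 rats each, and no test was run on the 13 w group.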
